A study of Mus musculus with 2 samples.

Results

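The genes described here encode the respiratory chain and the ATP synthase, the machinery that burns reducing equivalents with oxygen in the inner mitochondrial membrane and uses the energy to make ATP. They were taken by symbol. Nuclear members were the rows named Nduf with a, b, c, s or v and a number, Uqcr, Atp5 or Sdha to Sdhd. Rows named Cox4 to Cox8 followed by a, b, c or a digit were nuclear members too. Mitochondrial members were the rows whose symbol begins with mt-. By this rule 91 of the 13211 genes listed in the 2 tables were members, 78 of them nuclear and 13 encoded by mitochondrial DNA. All 91 were listed in both libraries. By symbol, the nuclear members divided into 36 genes of complex I, 4 of complex II, 8 of complex III, 13 of complex IV and 17 of complex V. The 17 include Atp5s and Atp5sl, which RefSeq lists as Dmac2l and Dmac2. The mitochondrial members divided into 7, 1, 3 and 2 genes of complexes I, III, IV and V. The rule does not reach a few subunits with other symbols: Cox4i1, Cyc1 and Ndufab1, and the electron carrier Cycs. Their values are given where they bear on a result and are named as non-members.

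The cells were live cells of whole mouse bone marrow, profiled by droplet single-cell RNA sequencing. One library was of the genotype called Col1a1fspKO, which carries Fsp1-Cre and Col1a1flox/flox, and the other was of the wild-type group (WT), which carries Col1a1flox/flox without Cre. Each library pooled the marrow of 2 mice at 2 months of age. With 1 library per genotype there is no replicate of either genotype, so no comparison between genotypes was tested, and the intervals given cover counting error only. Fsp1-Cre is driven by the promoter of S100a4, a gene that is also transcribed by blood cells. Col1a1, the gene that was deleted, gave 3 unique molecular identifiers (UMIs) in the Col1a1fspKO library while the WT table has no row for it, so its level does not check the labels. Where a pair of values is given below, the first is Col1a1fspKO and the second is WT.

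Electrons enter the chain at complex I, an NADH dehydrogenase, or at complex II, succinate dehydrogenase. They pass through complex III to complex IV, cytochrome c oxidase, which reduces oxygen. Complexes I, III and IV pump protons, and the ATP synthase (complex V) lets them flow back through a ring of c subunits that turns the catalytic head. Complex II is encoded wholly in the nucleus. The other complexes need products of both genomes, and the mitochondrial genes among them code for core subunits inside the membrane. In bone marrow the dividing precursors of neutrophils hold many mitochondria, whereas mature neutrophils hold few and draw most of their ATP from glycolysis. Erythroid cells clear their mitochondria as they fill with haemoglobin.

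The Col1a1fspKO library held 1309 cells and 8647722 UMIs, with a median of 4954 UMIs per cell, and the WT library held 1169 cells and 8624469 UMIs, with a median of 5534. The libraries shared 2 cell barcodes. Clustering without the member genes gave 12 named groups, which were checked by their defining markers. They included 5 neutrophil stages, from Mpo-positive progenitors through Fcnb-positive preneutrophils, Ltf-high immature and Mmp8-positive maturing neutrophils to Retnlg-high neutrophils. Fcnb-positive preneutrophils had as many Ltf-high markers as markers of their own, 3 of each, among the 10 leading genes. Eosinophils and basophils, with 9 and 18 cells, were too few in Col1a1fspKO to be compared. Free RNA was present in both libraries. At least 1 UMI of the globin Hba-a1 was seen in 96.7% to 100% of the cells of every group, although globins took 34.6% and 31.2% of the UMIs of erythroid cells and a median of only 1.10% and 1.02% of those of the other groups. Its part in the low values below was not tested.

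The genes with the most UMIs in their complexes were as follows. Cox8a, a small subunit of complex IV, was the most abundant nuclear member with 9017 and 9273 UMIs. Atp5e, the epsilon subunit of the ATP synthase head, followed with 6901 and 6886. Uqcrh, the hinge protein of complex III, led its complex with 4778 and 4874 UMIs. Ndufa4, which is named for complex I but sits in complex IV, gave 4255 and 4655, and Sdhb, the iron-sulphur subunit of complex II, 1408 and 1375. Of the mitochondrial genes, mt-Atp6 (chrM:7927-8607, GRCm38) gave the most UMIs, 41549 and 43178, followed by mt-Co3 with 35906 and 39127 and mt-Co1 with 32436 and 31954. The complete nuclear set took 2.29% and 2.37% of all UMIs, and the mitochondrial set 2.07% and 2.20%. The nuclear genes lay on 19 chromosomes. Chromosome 7 carried the most with 7, the X chromosome carried 3, and the Y chromosome 0.

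The promoters of several nuclear members are shown because genes of the respiratory chain are known to share letters bound by NRF1 and by ETS factors such as GABPA. In the RefSeq table for GRCm38.p6, 67 of the 78 nuclear members had a promoter window of 300 bases. The NRF1 letters GCGCATGC were found on either strand in 10 of the 67, or 14.9%, against 3.05% of the 27025 genes in the table. The ETS letters CCGGAAG were found in 16, or 23.9%, against 9.93%. YY1 letters, AAGATGGC, were found in 11, or 16.4%, against 3.19%, and the TATA letters TATAAA in 5, or 7.46%, against 15.7%. Below are the 95 bases from 75 before to 20 after the annotated start, in the direction of transcription, of a leading gene each of complexes IV and III, of Uqcr11, which holds both NRF1 and ETS letters, and of Ndufa11, in which the NRF1 letters occur on both strands and overlap. The capitals mark these letters or their reverse complement, and a match is a description of the sequence, not a bound site. They lie at chr19:7217597-7217691 (minus strand), chr4:116075051-116075145 (minus), chr10:80406802-80406896 (minus) and chr17:56717687-56717781 (plus) in the order printed.
Cox8a: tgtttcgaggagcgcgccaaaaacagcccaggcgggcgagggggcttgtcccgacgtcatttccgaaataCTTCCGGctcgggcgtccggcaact
Uqcrh: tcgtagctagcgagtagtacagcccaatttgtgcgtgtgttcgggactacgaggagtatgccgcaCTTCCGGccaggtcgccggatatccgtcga
Uqcr11: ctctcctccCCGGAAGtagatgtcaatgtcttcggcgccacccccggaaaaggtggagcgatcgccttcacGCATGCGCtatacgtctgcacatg
Ndufa11: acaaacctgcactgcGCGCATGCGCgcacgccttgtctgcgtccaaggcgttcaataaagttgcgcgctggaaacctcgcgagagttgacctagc

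The 2 genomes' transcripts were highest in different cells. Nuclear members took their largest share of UMIs in pro-B and pre-B cells, 3.12% (95% Clopper-Pearson interval 3.09 to 3.14) in Col1a1fspKO and 3.04% (3.01 to 3.07) in WT. This group was not uniform. With the libraries pooled, its largest cluster had 3.16% and its other clusters 2.42% and 2.60%, beside 3.05% and 2.86% in the smaller monocyte clusters. Mitochondrial members took their largest share in plasmacytoid dendritic cells, the interferon-producing cells of the dendritic lineage, at 4.14% (4.06 to 4.23) and 4.22% (4.12 to 4.33). Retnlg-high neutrophils were lowest for both sets. Their nuclear share was 1.02% (0.996 to 1.05) and 1.14% (1.10 to 1.18), and their mitochondrial share 0.456% (0.437 to 0.475) and 0.491% (0.463 to 0.520). These orders at the top and bottom were the same in both libraries. The nuclear top rank depended on the total. With the 20 most abundant genes of the series left out of it, Fcnb-positive preneutrophils had 3.52% and 3.62%. Ltf-high neutrophils then had 3.46% and 3.62%, and pro-B and pre-B cells 3.44% and 3.36%. Between the extremes, monocytes had nuclear shares of 2.73% and 2.75%, and Mpo-positive progenitors 2.51% and 2.61%. T and NK cells had 2.41% and 2.21%, plasmacytoid dendritic cells 2.27% and 2.37%, and immature and mature B cells 2.16% and 2.10%. T and NK cells and plasmacytoid dendritic cells changed places between the libraries in these shares. In medians over cells, plasmacytoid dendritic cells were higher in both, at 2.39% and 2.26% against 2.20% and 2.22%. For the mitochondrial set, immature and mature B cells came next after plasmacytoid dendritic cells with 3.73% and 3.48%, then Mpo-positive progenitors with 3.10% and 3.18% and T and NK cells with 2.67% and 2.69%. Pro-B and pre-B cells followed with 2.60% and 2.57% and monocytes with 2.49% and 2.62%, in the reverse order in WT.

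**Figure D1:**
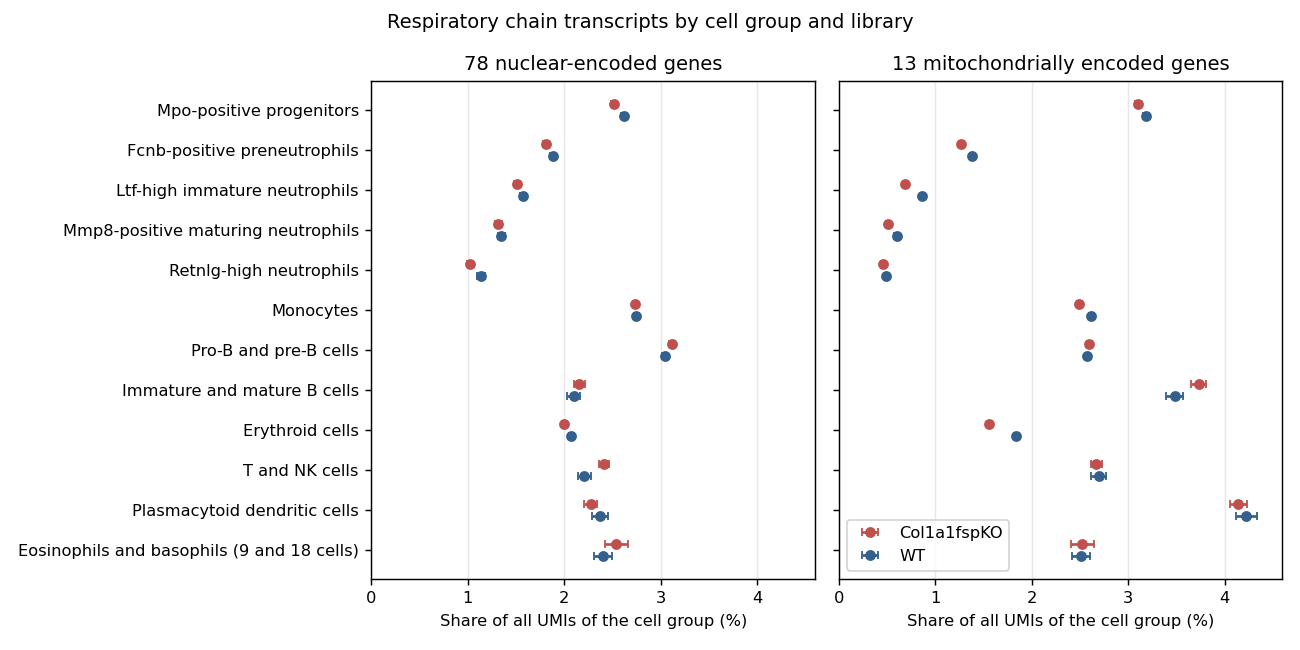
Share of all UMIs (percent) held by the nuclear and by the mitochondrial members in each of the 12 cell groups, for the Col1a1fspKO and the WT library. Error bars are 95% counting intervals. With all UMIs as the total, nuclear shares peak in pro-B and pre-B cells and mitochondrial shares in plasmacytoid dendritic cells. Retnlg-high neutrophils are lowest for both.

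Dividing the mitochondrial by the nuclear UMIs removes the total from the comparison. The ratio was 1.82 and 1.78 in plasmacytoid dendritic cells, 1.73 and 1.66 in immature and mature B cells and 1.23 and 1.22 in Mpo-positive progenitors. It was 0.834 and 0.846 in pro-B and pre-B cells, which had the largest nuclear share, and 0.388 and 0.446 in Mmp8-positive maturing neutrophils. Plasmacytoid dendritic cells held 1.66 and 1.61 times the mitochondrial share of monocytes but only 0.831 and 0.863 times their nuclear share. The next counts pool the UMIs of the 2 libraries over the 12 groups. They were not made over all genes, so they do not set the members apart. Of the 78 nuclear genes, 45 were highest in pro-B and pre-B cells and 13 in monocytes, whereas 56 were lowest in Retnlg-high neutrophils. Of the 13 mitochondrial genes, 8 were highest in plasmacytoid dendritic cells. mt-Cytb, mt-Nd2 and mt-Nd3 were highest in immature and mature B cells, and mt-Atp8 in Mpo-positive progenitors. mt-Nd6 (chrM:13552-14070), the only messenger RNA gene on the other strand, gave 53 and 35 UMIs in all, and was highest in T and NK cells.

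Along the neutrophil stages both sets were lower at each later stage in both libraries. Nuclear shares ran from 2.51% and 2.61% in Mpo-positive progenitors to 1.81% and 1.88%, 1.51% and 1.57%, 1.32% and 1.35%, and 1.02% and 1.14% in Retnlg-high neutrophils. The last share was 2.45-fold and 2.30-fold lower than the first. Mitochondrial shares ran from 3.10% and 3.18% to 1.27% and 1.38%, 0.688% and 0.859%, 0.511% and 0.601%, and 0.456% and 0.491%, a difference of 6.81-fold and 6.49-fold. With each cell assigned to a stage by its own marker score instead of its cluster, this ratio of shares was 0.349 and 0.356 in place of 0.147 and 0.154. The greatest mitochondrial step was the first, 2.44-fold and 2.31-fold, and the last was 1.12-fold and 1.22-fold. In medians over cells, the last step was from 0.462% and 0.552% to 0.351% and 0.441%. The Retnlg-high median in Col1a1fspKO thus lay below the summed share of 0.456%. The ratio of mitochondrial to nuclear UMIs was 1.23 and 1.22 in Mpo-positive progenitors, 0.703 and 0.733 in Fcnb-positive, 0.456 and 0.546 in Ltf-high, 0.388 and 0.446 in Mmp8-positive and 0.445 and 0.431 in Retnlg-high cells. In UMIs per cell the range was wider. The median cell held 211 and 310 nuclear and 285 and 388 mitochondrial UMIs among Mpo-positive progenitors, against 32 and 40.5 nuclear and 11 and 15 mitochondrial UMIs among Retnlg-high neutrophils. The median totals of these cells were 9636 and 12819.5 against 3144 and 3382.5 UMIs, and fewer transcripts per cell cannot be told apart from less RNA captured per cell. After each cell was thinned to 2500 UMIs, the median number of nuclear members seen was 35 and 36 in Mpo-positive progenitors and 19 and 21 in Retnlg-high neutrophils, and 42 and 41 in pro-B and pre-B cells.

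The order of the nuclear shares along the stages depended on what they were divided by. The 20 most abundant genes of the series, led by the S100 genes S100a8 and S100a9 and including the granule genes Camp and Ngp, took 12.5% and 11.1% of the UMIs of Mpo-positive progenitors and 50.4% and 50.9% of those of Retnlg-high neutrophils. With these 20 genes out of the total, the nuclear share was 2.87% and 2.94% in Mpo-positive, 3.52% and 3.62% in Fcnb-positive, 3.46% and 3.62% in Ltf-high, 2.93% and 3.02% in Mmp8-positive and 2.06% and 2.32% in Retnlg-high cells. It was then lower in Retnlg-high than in Mpo-positive cells by a ratio of 0.718 and 0.789. At each of the stages between, it was higher than in Mpo-positive cells in both libraries. The mitochondrial share was still lower at each stage, at 3.55% and 3.58%, 2.48% and 2.65%, 1.58% and 1.98%, 1.14% and 1.35%, and 0.918% and 1.001%. The member mt-Atp6 is 1 of the 20 genes, and it was taken out of the total but kept in this share. The ratio of the 2 sets does not contain the total.

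Gene by gene, Retnlg-high neutrophils were set against Mpo-positive progenitors, calling a gene lower or higher past 2-fold where the 2 groups held at least 100 UMIs of it. Of all genes tested, 53.8% and 61.2% were called lower and 20.2% and 13.6% higher. Of the 68 nuclear members tested in each library, 48 and 42 were called lower and 0 higher. The lower calls were 70.6% of the members in Col1a1fspKO, above the share of all genes, and 61.8% in WT, about that share. Their median was 2.78-fold and 2.39-fold lower, beside 2.44-fold and 3.39-fold over all genes. All 10 mitochondrial members tested were called lower in both libraries, with medians of 9.09-fold and 8.73-fold. With the 20 most abundant genes out of the total, 25 and 21 of the 68 nuclear members (36.8% and 30.9%) were called lower, beside 43.1% and 49.6% of all genes, and 9 of the 10 mitochondrial members in each library. With each cell assigned on its own, 31 of 66 and 24 of 70 nuclear members were called lower, and after thinning 21 of 39 and 13 of 32. All genes were not counted under own assignment or thinning, so these counts do not set the members apart.

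Within complex V the c ring differed more than the other groups of subunits. The mRNAs of the c subunit, encoded by Atp5g1, Atp5g2 and Atp5g3, were summed, and the sum was 16.1-fold and 12.1-fold lower in Retnlg-high neutrophils. It was 1772 and 1912 CPM (UMIs per 1000000 UMIs of the group) in Mpo-positive progenitors, 535 and 610, 271 and 288, and 166 and 162 in the stages between, and 110 and 158 in Retnlg-high cells. Atp5g1 gave 807 and 1092 UMIs in Mpo-positive progenitors against 17 and 10 in Retnlg-high neutrophils, a 22.7-fold and 21.2-fold difference in share. The 3 genes code for the same mature protein and have close copies, so the split of reads among them is uncertain. The summed UMIs of the 5 genes of the catalytic head were 3.05-fold and 2.88-fold lower. Atp5b, its beta subunit, gave 510 and 573 CPM against 122 and 132. Atp5e, also of the head, was 2.10-fold and 1.84-fold lower. Those of the 7 genes of the membrane part and stalk were 1.84-fold and 1.81-fold lower. Atp5l, subunit g in the membrane part, gave 666 and 790 CPM against 581 and 575.5, a ratio of 0.872 and 0.728, and Atp5h, subunit d of the stalk, was 1.74-fold and 1.83-fold lower. The groups of subunits in this and the next paragraph were formed after the values were seen.

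In complex I, the summed UMIs of 28 subunits that surround the catalytic core were 1.87-fold and 1.77-fold lower. Of the 27 that could be tested, 15 and 13 were called lower, beside 53.8% and 61.2% of all genes. Several members showed little difference. Ndufa13 gave 261 and 239 CPM in Mpo-positive progenitors and 315 and 337 in Retnlg-high neutrophils, a ratio of 1.21 (0.987 to 1.47) and 1.41 (1.09 to 1.82). Ndufb7 gave 336 and 356 CPM against 344 and 367, and Ndufa1 and Ndufa3 had ratios of 1.05 and 0.899 and of 0.972 and 0.943. Ndufs4 had 0.917 and 0.897, and Ndufv3 0.774 and 0.9303. Ndufa2, one of the complex I genes with the most UMIs, was 2.26-fold and 1.89-fold lower. At the other end Ndufc2 gave 187 and 218 UMIs in Mpo-positive progenitors against 3 and 4. Ndufa12 gave 198 and 259 UMIs against 8 and 1, Ndufa5 gave 181 and 203 against 4 and 5, and Ndufb2 gave 244 and 303 against 15 and 4. Ndufab1, the acyl carrier subunit, which is not a member, was 18.3-fold and 26.8-fold lower.

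In complex III every member tested was called lower. They were 8 complex III genes in Col1a1fspKO and 7 in WT, with medians of 3.63-fold and 3.27-fold. Uqcr11 was 5.31-fold and 3.59-fold lower, Uqcrq 2.49-fold and 2.26-fold, Uqcr10 2.56-fold and 2.60-fold and Uqcrh 2.16-fold and 2.54-fold. Cyc1, cytochrome c1 of the same complex and a non-member, was 4.72-fold and 6.06-fold lower. In complex IV, 7 of 11 genes (63.6%) were called lower in each library, beside 53.8% and 61.2% of all genes. The medians over the 11 were 2.35-fold and 2.31-fold lower. Cox8a gave 1201 and 1226 CPM against 632 and 673.5, short of 2-fold, and Cox6c was 2.35-fold and 2.33-fold lower and Cox7c 3.42-fold and 2.83-fold lower. Cox4i1, a non-member of the same complex, was 2.13-fold and 1.89-fold lower. Ndufa4, counted with complex I by its symbol, gave 666 and 703 CPM against 76.8 and 115. In complex II, Sdhd was 3.19-fold and 7.14-fold lower and Sdhb 1.90-fold and 1.41-fold lower. Sdha, the flavoprotein, gave 65 and 99 UMIs against 10 and 1, and in Col1a1fspKO it was under the 100 UMIs needed for a call. Of the 76 nuclear members with at least 100 UMIs, 37 in Col1a1fspKO and 34 in WT were lower at every one of the stage steps. That count was not made over all genes.

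**Figure D2:**
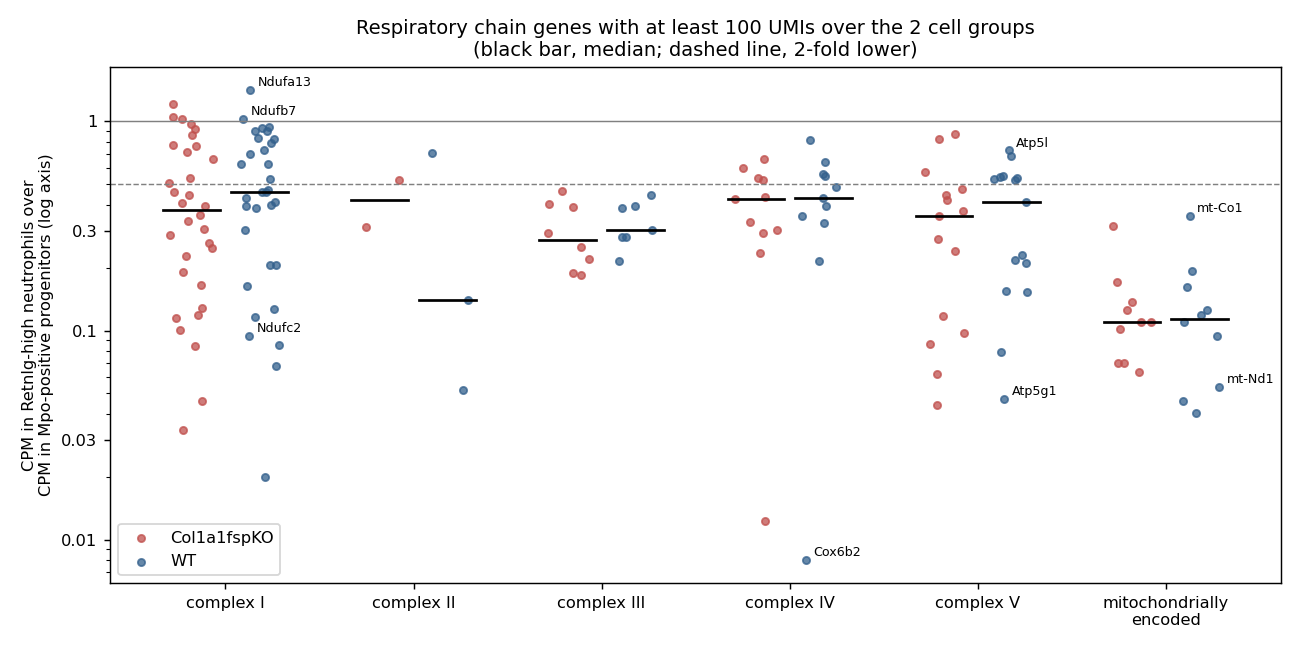
Each point is a nuclear or mitochondrial member; the vertical axis is its share of UMIs in Retnlg-high neutrophils over that in Mpo-positive progenitors (log scale), by complex and library. Black bars are medians, the dashed line marks 2-fold lower, and Cox6b2, with 0 UMIs in WT Retnlg-high neutrophils, is drawn at the lower edge; mitochondrial members sit below most nuclear members.

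The other genes of mitochondrial and energy metabolism give the setting of these differences. In the same contrast 53.8% and 61.2% of all genes were called lower and 20.2% and 13.6% higher. All 92 cytosolic ribosomal protein genes tested were called lower, with medians of 12.6-fold and 12.4-fold. Mitochondrial ribosomal protein genes were called lower in 28 of 31 and 33 of 36, with medians of 5.43-fold and 6.95-fold. A mixed list of mitochondrial genes held Slc25a3, Slc25a4, Slc25a5, Vdac1, Vdac2, Vdac3, Ucp2, Bnip3l, Sod2 and Prdx3. Of those tested, 6 of 9 and 7 of 10 were called lower. Slc25a5, an ATP and ADP exchanger, was 6.67-fold and 10.3-fold lower, whereas Ucp2, an uncoupling protein, had a difference of 1.10-fold and 1.15-fold. Assembly factors of the complexes were called lower in 4 of 7 and 2 of 7. Genes of the citric acid cycle were called lower in 2 of 3 in each library, and cell cycle genes in 5 of 5. Cycs, cytochrome c, was 9.47-fold and 11.3-fold lower. Glycolysis stood apart: its 8 genes tested had medians of 1.78-fold and 1.71-fold higher, 2 and 3 were called higher and 1 lower. Gapdh was 1.67-fold and 1.497-fold higher, Eno1 1.93-fold and 2.05-fold higher and Pkm 3.75-fold and 2.97-fold higher.

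The mitochondrial transcripts did not keep their proportions along the neutrophil stages. mt-Co1 (chrM:5328-6872), the catalytic subunit of complex IV, made up 15.1% and 14.05% of the mitochondrial UMIs of Mpo-positive progenitors. It made up 24.3% and 23.1% in Fcnb-positive, 33.3% and 29.6% in Ltf-high, 34.8% and 31.0% in Mmp8-positive and 32.6% and 32.2% in Retnlg-high cells. In the groups outside the neutrophil stages it ranged from 13.8% to 21.4%. mt-Nd1 (chrM:2751-3707), a membrane subunit of complex I, was lower instead, from 11.1% and 11.7% to 2.52% and 3.58% in Mmp8-positive and 4.79% and 4.08% in Retnlg-high cells. The ratio of mt-Co1 to mt-Nd1 was 1.36 (1.30 to 1.42) and 1.199 (1.15 to 1.25) in Mpo-positive progenitors. It was 3.54 and 3.30, 8.13 and 6.37, and 13.8 (10.6 to 18.1) and 8.66 (6.79 to 11.2) in the following stages, and 6.79 (5.56 to 8.37) and 7.89 (5.82 to 10.9) in Retnlg-high cells. Elsewhere it lay between 1.08 and 2.50. In CPM, mt-Co1 was 4689 and 4473 against 1484 and 1582, a 3.16-fold and 2.83-fold difference, while mt-Nd1 was 3455 and 3732 against 218.5 and 200.4, a 15.8-fold and 18.6-fold difference. Between them lay the other complex IV genes, mt-Co2 with 5.83-fold and 5.17-fold and mt-Co3 with 7.29-fold and 6.21-fold, and mt-Atp6 of complex V with 9.09-fold and 9.13-fold. The other complex I genes were lower by 9.14-fold and 7.98-fold (mt-Nd4), 14.3-fold and 21.8-fold (mt-Nd2) and 14.3-fold and 24.9-fold (mt-Nd3). mt-Nd4l and mt-Atp8, with 70 and 67 and with 33 and 31 UMIs in Mpo-positive progenitors, were too sparse for a call. These transcripts are cut from a common precursor of the heavy strand. Ratios of mt-Co1 to mt-Cytb (chrM:14145-15288) were higher too, from 1.63 and 1.39 in Mpo-positive progenitors to 4.14 and 4.12 in Retnlg-high cells.

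**Figure D3:**
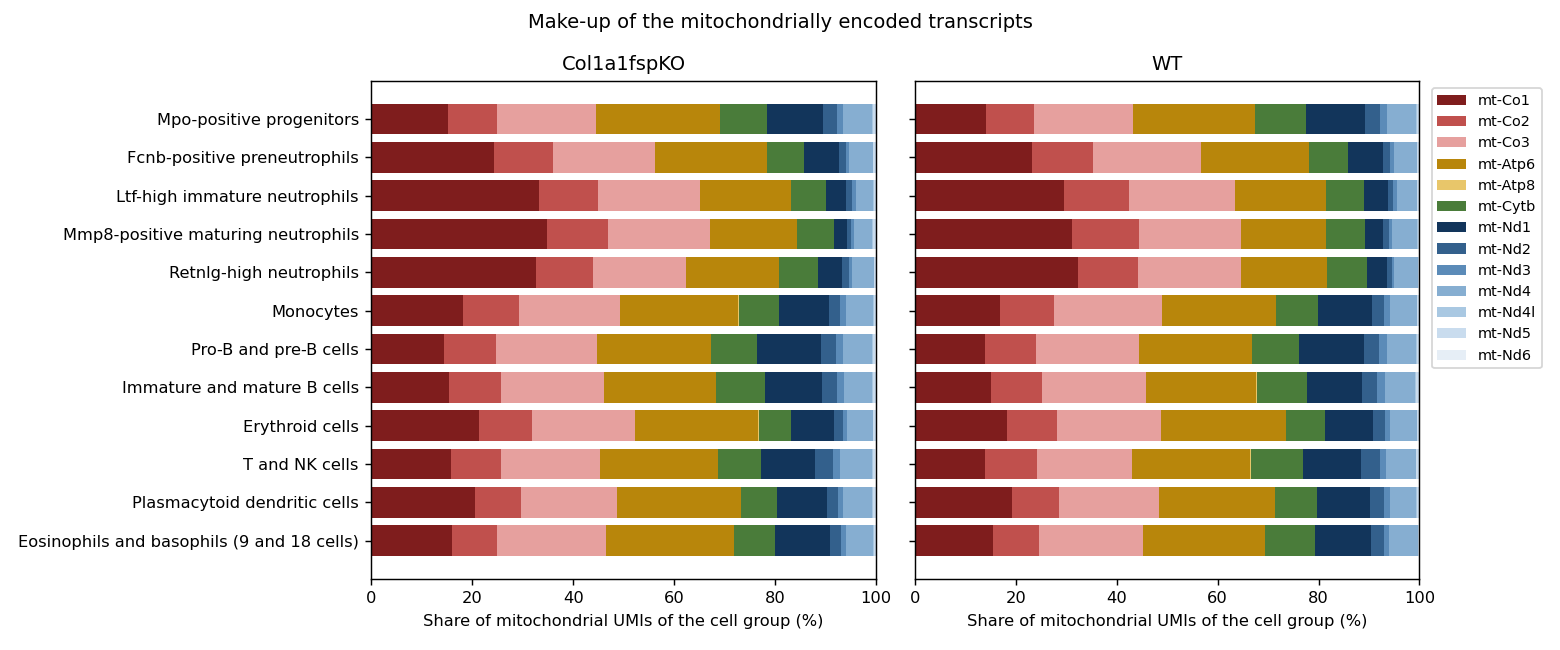
Stacked bars give the percent of all mitochondrial UMIs that came from each mitochondrial gene, for each cell group and library. mt-Co1 takes 29.6% to 34.8% in the Ltf-high, Mmp8-positive and Retnlg-high neutrophils and 13.8% to 21.4% in the groups outside the neutrophil stages.

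In the B lineage the shares of the 2 sets differed in opposite directions. Immature and mature B cells had a nuclear share 0.693 (0.672 to 0.714) and 0.689 (0.666 to 0.713) times that of pro-B and pre-B cells, and a mitochondrial share 1.44 (1.40 to 1.47) and 1.35 (1.32 to 1.39) times theirs. Of the nuclear members, 5 of 71 tested in Col1a1fspKO and 8 of 72 in WT were called lower past 2-fold and 0 higher. Over all genes 23.6% and 22.9% were called lower and 4.38% and 4.72% higher. The nuclear median was 1.44-fold and 1.45-fold lower, beside 1.28-fold and 1.24-fold over all genes, so the lower share rested on many small differences. Ndufa9 was 0.413 and 0.407 times its level in pro-B and pre-B cells, Cox5a 0.411 and 0.507 times and Ndufc2 0.519 and 0.332 times. Ndufv2 was 0.406 and 0.653 times and Ndufs4 0.803 and 0.444 times. Cox7a2l, a factor that joins complexes III and IV into supercomplexes, was 1.14 and 1.38 times, Ndufa6 0.947 and 1.34 times and Uqcrh 1.04 and 0.911 times. All 10 mitochondrial members tested had ratios above 1, with medians of 1.45 and 1.38. mt-Co1 was 1.54-fold and 1.48-fold higher, mt-Atp6 1.42-fold and 1.33-fold higher, and mt-Nd1 1.29-fold and 1.14-fold higher. Only mt-Nd5 in WT, at 2.07-fold, passed 2-fold. Cell cycle genes were called lower in 15 of 15 and 16 of 16, and the pro-B and pre-B group included a cluster of 74 shallow cells.

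Among monocytes the differences were smaller. Cells of the Wfdc17-led cluster had nuclear shares of 2.58% and 2.45%, and the early monocyte clusters 2.98% and 3.14%, and 2.74% and 2.98%. Between them 0 of 71 and 1 of 69 nuclear members were called lower past 2-fold and 0 higher, beside 11.0% and 11.7% of all genes lower and 7.43% and 8.81% higher. Median differences were 1.16-fold and 1.34-fold lower for nuclear members and 1.34-fold and 1.33-fold lower for mitochondrial members, of which 0 of 10 were called. Cell cycle genes were called lower in 10 of 10 and 9 of 9 in this contrast.

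In erythroid cells the shares followed the globins. Cells with globins under 20% of UMIs numbered 19 and 23, those with 20% to 50% numbered 25 and 28, and those with 50% or more 41 and 28. In that order the nuclear share was 2.85%, 2.10% and 1.12% in Col1a1fspKO and 2.84%, 1.86% and 1.14% in WT. With globins out of the total it was 3.12%, 3.17% and 2.78%, and 3.09%, 3.02% and 2.73%. Without globins the mitochondrial share was 2.92%, 2.15% and 1.60%, and 3.08%, 2.40% and 1.78%. The ratio of mitochondrial to nuclear UMIs was 0.936, 0.678 and 0.577, and 0.996, 0.792 and 0.651. Globin share orders the cells and is part of every total, so these values are a description.

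In 2 nuclear members the highest cell group held at least 4 times the level of the median group. The first, Cox6a2, the heart and muscle form of a complex IV subunit (chr7:128205435-128206387, minus strand, GRCm38), gave 311 and 232 UMIs, or 1549 and 1757 CPM, in plasmacytoid dendritic cells. It was seen in 41 of 43 (95.3%) and 29 of 30 (96.7%) of these cells, and in 21 of 1266 (1.66%) and 35 of 1139 (3.07%) of all other cells. The next group, Mpo-positive progenitors, had 27.3 and 18.2 CPM. In T and NK cells it was seen in 0 of 59 and 0 of 32 cells, and by 3 counts of the total these zeros leave room for 5.08% and 9.38% of cells with a UMI. Median depths of plasmacytoid dendritic cells and of T and NK cells were close, at 4500 and 4402 UMIs and at 4372 and 4258.5 UMIs. Its common form Cox6a1 gave 463 and 462 CPM in plasmacytoid dendritic cells, so that Cox6a2 gave 3.34 and 3.80 times its UMIs there. Plasmacytoid dendritic cells held 88.1% and 77.9% of all Cox6a2 UMIs of their library. Of the WT UMIs outside them, 12 came from 1 cell of the monocyte group.

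Cox6b2 (chr7:4751792-4753094, minus strand), the testis form of another complex IV subunit, was the other. It gave 160 and 180 CPM in Mpo-positive progenitors, 124 and 124 in erythroid cells, 64.2 and 61.1 in Fcnb-positive preneutrophils and 48.6 and 45.2 in monocytes. Retnlg-high neutrophils had 1 and 0 UMIs, against 170 and 217 in Mpo-positive progenitors. In WT this was at least 14.1-fold lower, with the floor set at 3 counts in that library. Cox7a2l gave 564 and 493 CPM in Mpo-positive progenitors but 191 and 156 in Fcnb-positive preneutrophils, and 209 and 261 in erythroid cells. Ndufb7 and Ndufv3 were highest in Fcnb-positive preneutrophils, at 558 and 594 and at 407 and 463 CPM. The muscle form Cox7a1 gave 19 and 12 UMIs in all.

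**Figure D4:**
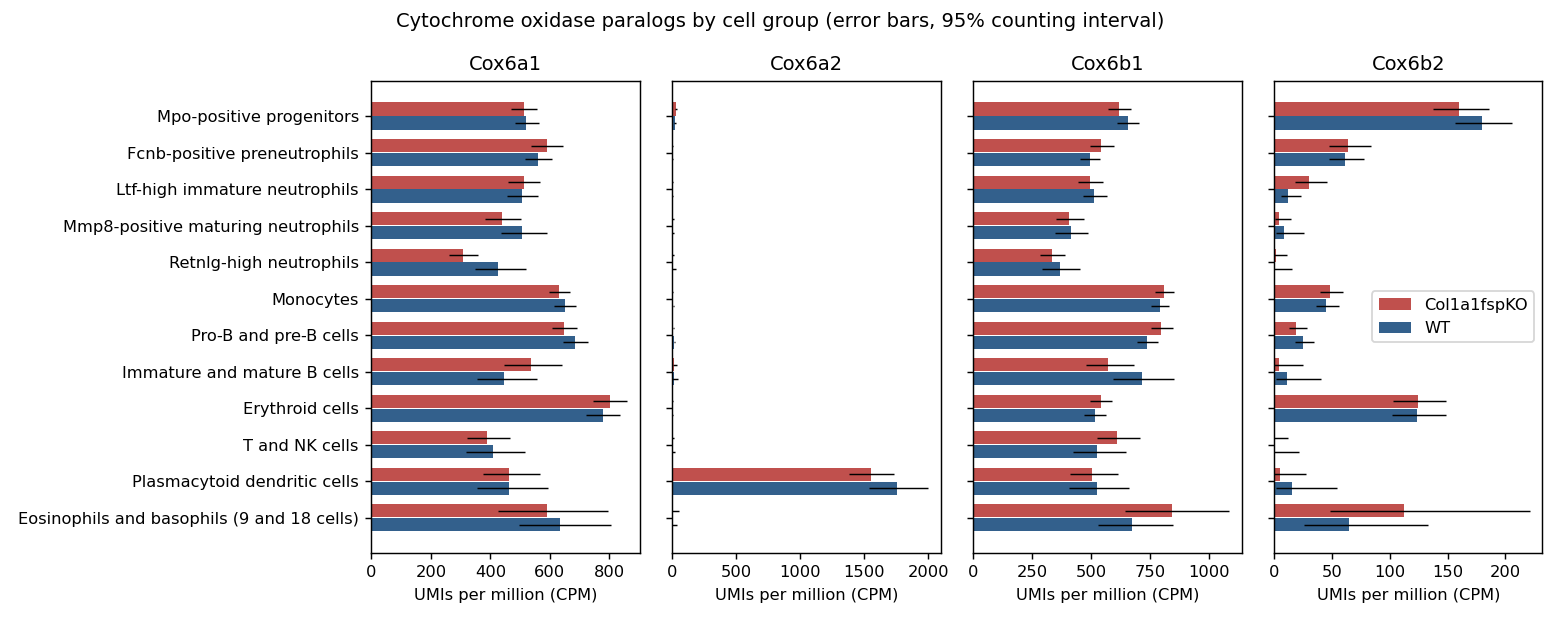
CPM of Cox6a1, Cox6a2, Cox6b1 and Cox6b2 in each cell group and library. Cox6a2 reaches 1549 and 1757 CPM in plasmacytoid dendritic cells and 27.3 and 18.2 CPM in the next group, while Cox6b2 is highest in Mpo-positive progenitors.

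Between the genotypes the shares differed little. Each ratio that follows is the Col1a1fspKO share over the WT share within a cell group. Nuclear ratios lay between 0.899 in Retnlg-high neutrophils (0.857 to 0.942) and 1.09 in T and NK cells (1.05 to 1.13), and 3 of the 11 groups compared were above 1. The median share over T and NK cells went the other way, at 2.20% and 2.22%, and that over Retnlg-high neutrophils was 0.998% and 1.14%. Mitochondrial ratios lay between 0.801 in Ltf-high immature neutrophils (0.771 to 0.833) and 1.07 in immature and mature B cells (1.04 to 1.11), and 2 of 11 were above 1. Erythroid cells had 0.849 (0.830 to 0.868) and Mmp8-positive neutrophils 0.8501 (0.801 to 0.902) for the mitochondrial set. In monocytes the nuclear ratio was 0.995 (0.983 to 1.007). Among erythroid cells the globins took 34.6% and 31.2% of UMIs, and with them left out the nuclear share was 3.06% and 3.01%, the other way round. The mean share over cells was 2.07% and 2.17% for nuclear and 1.89% and 2.01% for mitochondrial members. With every cell group given the same weight in both libraries it was 2.11% and 2.13%, and 1.91% and 1.97%. The libraries differed in their mix of cells: Retnlg-high neutrophils numbered 155 and 66. The part of this mix in the difference of the means was not tested.

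Gene by gene within groups, few members differed past 1.5-fold. Of 589 pairs of a nuclear member and a group with at least 100 UMIs, 4 (0.679%) were lower in Col1a1fspKO and 0 higher. Of 102 pairs with a mitochondrial member, 3 (2.94%) were lower and 0 higher. Over the 16633 pairs of all genes, 2.07% were lower and 2.09% higher. The nuclear count of 4 was 24 with a minimum of 50 UMIs, 1 with 200 and 10 with each cell assigned on its own. Pairs of all genes were not counted under these settings, so the changed counts do not set the members apart. The nuclear pairs were Ndufa12 and Ndufb8 in Fcnb-positive preneutrophils, Ndufb5 in erythroid cells and Cox5a in plasmacytoid dendritic cells. Ndufa12 gave 34 and 92 UMIs, a ratio of 0.5001 (0.327 to 0.749), and Ndufb8 gave 162 and 348, a ratio of 0.630. The mitochondrial pairs were mt-Nd1 and mt-Nd4 in Mmp8-positive neutrophils, with ratios of 0.598 and 0.594, and mt-Nd2 in erythroid cells with 0.628. mt-Cytb was below 1 in 10 of 11 groups, with a median ratio of 0.889. mt-Co1 was above 1 in 6 and below 1 in 5, with a median of 1.03. Whether these ratios lie outside the spread between pools of mice of 1 genotype was not tested.

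**Figure D5:**
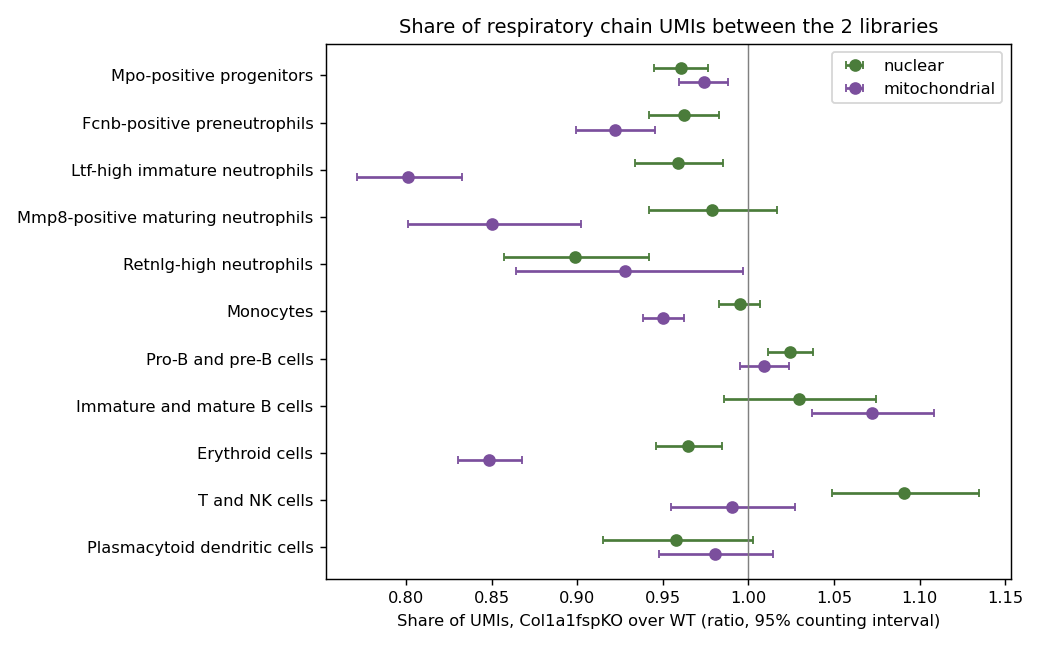
Ratio of the Col1a1fspKO to the WT share of UMIs for the nuclear and the mitochondrial members in 11 cell groups, with 95% counting intervals. Nuclear ratios lie between 0.899 and 1.09 and mitochondrial ratios between 0.801 and 1.07; there is 1 library per genotype.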

How the data were processed

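Single cells of mouse bone marrow were captured with the 10x 3' v2 chemistry in 2 libraries. Per the submitters' processing notes, Cell Ranger and Seurat 3.5.3 were used with the mm10 genome; the Cell Ranger version was not given in the sources used here. The deposited values were raw UMI counts per gene and cell, which the authors did not normalize, and no UMI count was changed here. The study's limits of 200 to 7000 genes and under 10% mitochondrial UMIs were already met, since cells had 583 to 4975 genes and 0 cells had 10% or more, so no cell was removed. A 3' UMI tags each molecule once, so shares were not scaled by length.

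Cells were clustered with Seurat 5.3.0 in R 4.3.3 (log normalization, 2000 variable genes, 27 principal components, Louvain resolution 0.8), without integration of the libraries. To keep the results out of the clustering, 406 genes, members included, were barred from the variable genes. The 16 clusters were named from marker lists, taking the list whose genes, as log2(CPM + 10), had the greatest average z-score, with at least 3 markers in 10% of the cells and at least 1 of their own among the 10 leading genes. This scoring was written after the clusters were seen, and the names may differ from the study's. Doublets were kept in; Scrublet (scanpy 1.11.5) called 10 cells, or 0.404%, so it cannot be taken to have found them.

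Shares are the UMIs of a set over all UMIs of a cell group, with Clopper-Pearson 95% intervals. Ratios of shares carry exact binomial intervals (scipy 1.17.1, Python 3.11.15). A gene was called past 2-fold between stages or 1.5-fold between genotypes where the compared sums held at least 100 UMIs, and a group needed 10 cells in each library. CPM is UMIs per 1000000 UMIs of the group. There was no test between genotypes, with 1 library each. The interval code was tested on simulated data. Alternatives changed the clustering, the cell assignment, the depth, the total, the UMI minimum and the member list.

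The members and the gene lists were chosen with earlier results of these data known. Named genes were the mitochondrial genes and the 3 nuclear members with most UMIs in each complex. The 5 lowest and 5 highest ratios in the neutrophil and B lineage contrasts were named, and those past 1.5-fold between genotypes. Members whose highest group held at least 4 times the median group, paralogs, and subunits outside the rule were named as well. Ndufa11 was named for its promoter only, and the groups of complex I and complex V subunits, Cox5a, Ndufb5 and members of the other lists were described after their values were seen. Promoters came from a RefSeq table of GRCm38.p6. One group of complex I subunits is not reported here.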

Additional observations from a re-analysis of the deposited data

Results flagged for a closer look

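Within a library pair, 2 sets had cell groups that differed in opposite directions between the genotypes, each with a counting interval on its own side of 1. The difference between the groups was not tested, and there is 1 library per genotype. For the mitochondrial members, the Col1a1fspKO share was 1.07 times the WT share in immature and mature B cells and 0.801 times in Ltf-high immature neutrophils. For the nuclear members it was 1.09 times in T and NK cells and 0.899 times in Retnlg-high neutrophils. The median nuclear share over cells was 2.20% and 2.22% in T and NK cells, the other way round. It was 0.998% and 1.14% in Retnlg-high neutrophils. The median mitochondrial share over cells was 3.70% and 3.49% in immature and mature B cells and 0.653% and 0.809% in Ltf-high neutrophils. T and NK cells numbered 59 and 32 and immature and mature B cells 62 and 45.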

How the results depend on the processing

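Without the 20 most abundant genes, Fcnb-positive, Ltf-high and Mmp8-positive cells had a higher nuclear share than Mpo-positive cells instead of a lower one. Fcnb-positive and Ltf-high cells then also had a higher nuclear share than pro-B and pre-B cells in both libraries. The erythroid nuclear ratio between genotypes turned without globins. The neutrophil ratios and counts that follow did not change direction under the alternatives run. The place of the nuclear members beside all genes did change without the 20 genes, from above or about level to below. Cell groups with a higher nuclear share in Col1a1fspKO stayed at 3 or 4 in all 14. The nuclear share of Retnlg-high neutrophils over Mpo-positive progenitors, 0.408 and 0.436, was 0.448 and 0.472 at resolution 0.4, 0.381 and 0.399 with all variable genes, 0.542 and 0.608 with each cell assigned on its own, 0.427 and 0.487 after thinning, 0.718 and 0.789 without the 20 most abundant genes in the total, and 0.432 and 0.473 as a mean over cells. In Col1a1fspKO it was also 0.423 at resolution 1.2 and 0.434 in cells of at least 4000 UMIs. The mitochondrial ratio, 0.147 and 0.154, was 0.119 and 0.145 with all variable genes, 0.349 and 0.356 with own assignment and 0.259 and 0.279 without the 20 genes. It was 0.140 at resolution 1.2 and 0.131 without cells over 5% mitochondrial UMIs in Col1a1fspKO, and 0.165 at resolution 0.4 and 0.197 in cells of at least 4000 UMIs in WT. Nuclear members past 2-fold lower, 48 and 42 of 68, were 31 of 66 and 24 of 70 with own assignment, 21 of 39 and 13 of 32 after thinning, which leaves fewer genes to test, and 25 and 21 without the 20 genes. Groups with a higher mitochondrial share in Col1a1fspKO, 2 of 11, were 1 at resolution 0.4, 1 at 1.2, 4 with own assignment and 1 without the shallow pre-B cluster. Nuclear members past 1.5-fold between genotypes, 4, were 10 with own assignment, 7 after thinning, 7 in cells of at least 4000 UMIs, 24 with a minimum of 50 UMIs and 1 with 200. Pairs of all genes were not counted under these settings. Leaving the 20 genes out multiplies every ratio by 1.76 and 1.81. For the other settings the cause was not tested. Own assignment gave 74.2% of cells the group of their cluster. Leaving out globins or the shallow cluster was chosen after seeing the data. No paired analysis was possible because each genotype has 1 library and no test was made, and no replicate could be left out. Members with few UMIs in Retnlg-high neutrophils, such as Ndufc2 and Ndufa12, are limited by depth.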

Other observations

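Across the 16 clusters the nuclear share had a Pearson correlation with the share of mitochondrial ribosomal protein genes of 0.96 in Col1a1fspKO and 0.95 in WT, and with the mitochondrial members of 0.72 and 0.74. The mitochondrial share correlated with that of cytosolic ribosomal protein genes at 0.88 and 0.88. Points share a library and each share is part of 1 total, so these are descriptions.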
